A study of Mus musculus with 6 samples.

Results

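Saa3, Hp, Lcn2, Fpr1 and Fpr2 are 5 genes of the 36528 listed in the count files. The first 3 encode secreted proteins of the acute-phase response, and Fpr1 and Fpr2 encode formyl peptide receptors. They were chosen by their measured counts and levels in these same libraries, and were matched through their Entrez Gene numbers. Their own levels and fold changes are therefore given as a description, with no p-value. RNA with poly(A) tails was sequenced from mouse microglia, the macrophages that reside in brain tissue, in vitro. Untreated wild-type microglia (WT_untreated), untreated microglia with a knockout of Cop1 (labelled Loxp_untreated, Cop1 KO microglia, and called Cop1 KO here) and wild-type microglia given lipopolysaccharide (WT_LPS, called LPS here) were compared, with 2 libraries in each of the 3 groups. Lipopolysaccharide is a bacterial cell-wall component that is sensed through Toll-like receptor 4. The Cop1 KO label names loxP but no Cre driver, and the labels give neither strain or age nor the dose and duration of LPS. No LPS-treated Cop1 KO library is among the samples, and whether a library came from 1 animal or from a pool is not stated in the labels.

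In the acute-phase response, interleukin 6 and interleukin 1 raise the output of a set of plasma proteins, chiefly from the liver, through STAT3, C/EBP and NF-kB transcription factors. SAA3, the member of the serum amyloid A family best known outside the liver, is made by macrophages and fat cells. Haptoglobin (Hp) binds free haemoglobin, and lipocalin 2 (Lcn2) binds bacterial iron carriers and so withholds iron from bacteria. The formyl peptide receptors are G protein-coupled receptors of neutrophils and macrophages that respond to peptides starting with formylmethionine, as bacteria and mitochondria make them. FPR2 binds a wider range of ligands than FPR1, among them serum amyloid A, annexin A1 and amyloid peptides. COP1 is a ubiquitin ligase subunit whose known substrates include transcription factors of the C/EBP, AP-1 and ETS families.

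The stretches before the transcription start are shown because Saa3, Fpr1 and Fpr2 were high in the same groups, with Lcn2 beside them as a gene high with LPS only, and because C/EBP and NF-kB factors are known to act on acute-phase genes. RefSeq promoter windows of build GRCm38.p6, 250 bases before each start, matched 4 of the 5 genes. Each line gives the part of the window that lies before the first exon of the gene's first GENCODE transcript, 5′ to 3′ on the gene's own strand. Capitals mark matches to the C/EBP motif TTNNGNAA or the NF-kB motif (GGG, any 5 bases, then CC) on either strand.
Saa3, serum amyloid A3, chr7:46715701-46715926, minus strand: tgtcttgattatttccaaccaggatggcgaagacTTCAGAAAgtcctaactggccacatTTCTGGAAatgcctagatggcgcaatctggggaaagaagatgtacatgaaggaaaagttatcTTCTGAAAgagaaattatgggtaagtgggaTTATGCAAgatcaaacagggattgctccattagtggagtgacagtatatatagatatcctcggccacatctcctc
Lcn2, lipocalin 2, chr2:32387798-32387989, minus strand: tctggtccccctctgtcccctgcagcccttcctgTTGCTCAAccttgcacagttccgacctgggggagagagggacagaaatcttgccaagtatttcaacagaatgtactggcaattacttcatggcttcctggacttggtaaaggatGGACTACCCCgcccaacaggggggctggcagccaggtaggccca
Fpr1, formyl peptide receptor 1, chr17:17883941-17884189, minus strand: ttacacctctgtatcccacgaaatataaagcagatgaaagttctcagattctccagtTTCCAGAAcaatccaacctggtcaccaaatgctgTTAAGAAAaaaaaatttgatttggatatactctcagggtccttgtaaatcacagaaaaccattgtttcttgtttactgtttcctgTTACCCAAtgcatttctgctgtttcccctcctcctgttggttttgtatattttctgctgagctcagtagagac
Fpr2, formyl peptide receptor 2, chr17:17887574-17887823, plus strand: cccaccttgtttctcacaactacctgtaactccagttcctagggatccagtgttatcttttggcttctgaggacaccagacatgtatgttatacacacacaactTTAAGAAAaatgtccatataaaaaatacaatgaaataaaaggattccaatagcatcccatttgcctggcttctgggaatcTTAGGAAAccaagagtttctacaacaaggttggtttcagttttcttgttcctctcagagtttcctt
The Lcn2 stretch also holds part of a coding exon of a longer GENCODE transcript of the same gene. The Saa3 stretch lies inside the Saa3 interval given below (46711998 to 46719615, minus strand). It therefore precedes a start within that interval and not the interval's 5′ end. Over the 250 bases before the start, the C/EBP motif matched 4 times in Saa3, 3 times in Fpr1, 2 times in Fpr2 and 1 time in Lcn2. Of all 32851 promoter windows searched in the same way, 36.8% held at least 1 such match. How often a window held more than 1 was not counted, so the numbers of matches have no background beside them. The NF-kB motif matched 1 time, in Lcn2, where the matched letters lie 102 to 93 bases before the start, and 45.8% of all windows held a match. The interferon-stimulated response element, searched as TTTC, any 2 bases and TTTC, matched 1 time, in Saa3 (3.0% of all windows), and shares bases with the third C/EBP match there. TTCNNNGAA, the site type of STAT factors, matched 1 time, in Fpr2 (7.0% of windows). GAGGAA, an ETS site, matched 1 time each in Lcn2 and Fpr2 (23.3% of windows), and TGANTCA, the AP-1 site, matched in none of the 4 (6.7% of windows). These are matches of letters only, and binding was not measured.

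Libraries held 20568144 to 22553708 counts, and replicates of each group differed by more than sampling noise. Separate cultures or animals are not named for the replicates, so a p-value covers the spread of these libraries alone, and that spread may be technical. The targeted gene Cop1 stood at 12.1 ± 0.863 CPM (counts per 1000000 of the TMM-scaled library) in untreated wild type, at 8.64 ± 0.825 in the knockout and 25.3 ± 2.69 after LPS (SD, n = 2 each). Counts cover the whole gene, so this checks the knockout label only in part. On the scale of the deposited normalised values, Cop1 in the knockout missed the threshold (adjusted p = 0.075, limma across all genes, against 0.00016 with edgeR, and 5.2e-07 to 0.075 over 13 alternatives). All 14 microglia markers had counts, with summed levels of 7322 to 7385 CPM in untreated wild type, 11242 to 11319.5 in Cop1 KO and 4411 to 4503 with LPS, although Siglech had 2 counts in all. Of 13 tested, 10 were higher and 0 lower in the knockout (median log2 fold change 0.49), against 28.1% and 30.3% of all genes. With LPS 3 were higher and 9 lower (median −0.78), against 30.2% and 43.4% of all genes. The 11 astrocyte markers, such as the filament gene Gfap, summed to 779 to 782 CPM in untreated wild type and 871 to 875 with LPS, but to 50.4 to 55 in Cop1 KO. In bulk RNA, fewer cells of a type and less RNA per cell cannot be told apart.

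**Figure D1:**
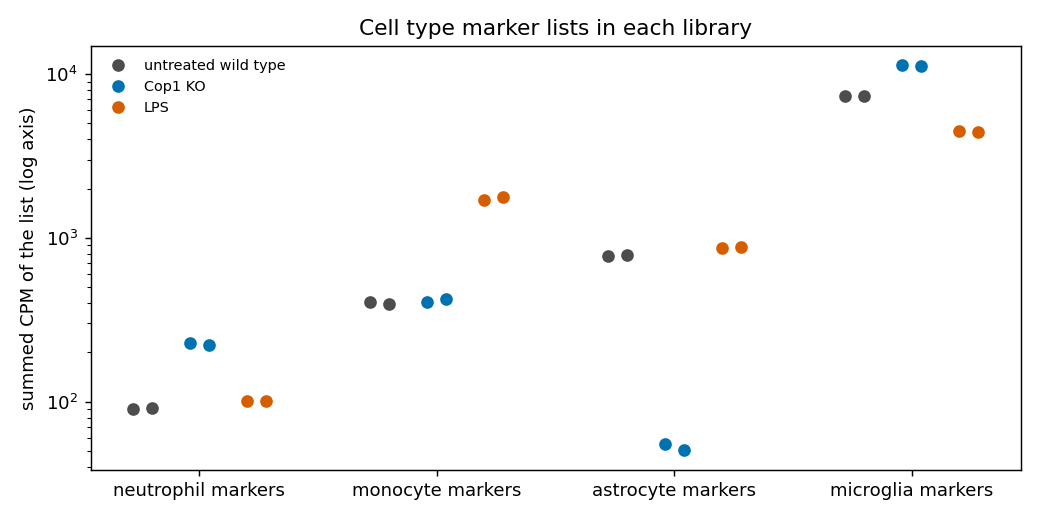
Summed CPM (log axis) of the neutrophil, monocyte, astrocyte and microglia marker lists, 1 point per library. The Cop1 KO libraries lie at 50.4 to 55 CPM for astrocyte markers, below 779 to 782 in untreated wild type, and the LPS libraries lie at 1693 to 1766 CPM for monocyte markers, above 394 to 403. Most of the monocyte sum with LPS is from Cd44, Itga4 and Ms4a4c.

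Saa3 was the most abundant of the 5 genes in every library. It encodes serum amyloid A3, a lipid-binding acute-phase protein (Entrez Gene 20210, chromosome 7, 46711998 to 46719615 on GRCm38, minus strand). The untreated wild-type libraries held 214 and 209 Saa3 counts, or 8.49 and 7.79 CPM. In the Cop1 KO libraries the counts were 3337 and 3352, or 150.2 and 148 CPM. With LPS they were 19117 and 17493, or 1069 and 1056 CPM. The 3 groups did not overlap, and the knockout lay between untreated wild type and LPS. The fitted fold change of Saa3 was 18.3 in the knockout (log2 4.2, SE 0.07) and 131 with LPS (log2 7.03, SE 0.07). By deposited length-scaled value (nRPKM, reads scaled to gene length and depth and adjusted by a size factor), Saa3 went from ranks 3500 and 3773 among all listed genes in untreated wild type to rank 138 in both knockout libraries and to ranks 27 and 29 with LPS.

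Hp, the haptoglobin gene, was high in Cop1 KO alone among the 3 groups. It lies on chromosome 8 (Entrez Gene 15439, 109575128 to 109579172, minus strand). Counts were 15 and 15 in untreated wild type, 127 and 149 in Cop1 KO and 7 and 6 with LPS. These correspond to 0.595 and 0.559 CPM, to 5.72 and 6.58 CPM and to 0.391 and 0.362 CPM. The knockout libraries lay well above the other 4, and the LPS libraries lay just below untreated wild type at counts that leave a wide error. The fitted fold change of Hp was 10.6 in the knockout (log2 3.40, SE 0.30), and the log2 fold change with LPS was −0.60 (SE 0.50), which did not pass the threshold. Hp was chosen by its values in these same libraries, so nothing is read from the side of the threshold on which it fell. With library size as the only scaling the LPS value became −1.16 and was past the threshold, which it missed under the other 12 alternatives. On that scaling the median of all genes in the LPS comparison was −0.74, against −0.18 with TMM factors.

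Lcn2 showed the reverse arrangement. Its product, lipocalin 2, is a secreted iron-carrier-binding protein that reactive astrocytes as well as myeloid cells are known to make (Entrez Gene 16819, chromosome 2, 32384637 to 32387739, minus strand). Lcn2 had 47 and 45 counts in untreated wild type, 38 and 30 in Cop1 KO and 1373 and 1247 with LPS. Scaled to depth these were 1.87 and 1.68 CPM, 1.71 and 1.32 CPM, and 76.7 and 75.3 CPM. The knockout and untreated ranges overlapped, and only the LPS libraries stood apart. With LPS the fold change was 42.8 (log2 5.42, SE 0.16). In the knockout the log2 fold change was −0.22 (SE 0.23), and leaving out 1 library at a time it ranged from −0.41 to −0.04. Astrocyte markers were 50.4 to 55 CPM in these knockout libraries and 779 to 782 CPM in untreated wild type, and their part in the Lcn2 level was not tested.

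Both formyl peptide receptor genes were at low levels in untreated wild type and ranked high with LPS. They lie on chromosome 17 in opposite directions, with 3884 bases between them: Fpr1 (Entrez Gene 14293) at 17876471 to 17883939 on the minus strand and Fpr2 (Entrez Gene 14289) at 17887824 to 17893952 on the plus strand. Fpr1, the high-affinity receptor for formylated peptides, had 30 and 25 counts in untreated wild type, 412 and 419 in Cop1 KO and 2014 and 1977 with LPS. The matching levels were 1.19 and 0.932 CPM, 18.5 CPM in both knockout libraries, and 113 and 119 CPM. No groups overlapped, and the knockout was again in between. Fpr1 was 17.4-fold higher in the knockout (log2 4.12, SE 0.20) and 109-fold higher with LPS (log2 6.77, SE 0.20).

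Fpr2, the receptor with the broader set of ligands, had 9 and 17 counts in untreated wild type, 172 and 158 in Cop1 KO and 2570 and 2638 with LPS. These were 0.357 and 0.634 CPM, 7.74 and 6.97 CPM, and 144 and 159 CPM. The groups lay in the same order as for Fpr1, with no overlap and with a larger step from knockout to LPS. Fpr2 was 14.6-fold higher in the knockout (log2 3.86, SE 0.30) and 299-fold higher with LPS (log2 8.23, SE 0.29). Because the untreated value rests on 26 counts in all, leaving out 1 library at a time moved the log2 fold change between 3.53 and 4.34 in the knockout and between 7.88 and 8.70 with LPS. Summed microglia markers were higher in these knockout libraries and lower with LPS than in untreated wild type, over the ranges given above, and their part in the receptor levels was not tested.

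**Figure D2:**
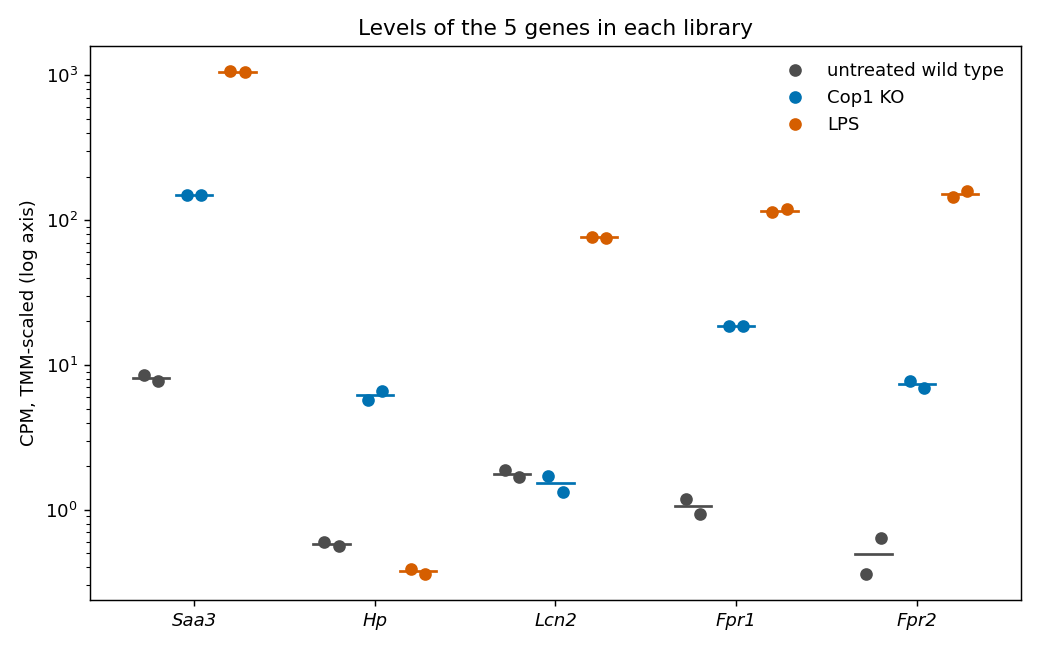
Level of each of the 5 genes in CPM (log axis), with 1 point per library and a line at the mean of the 2 libraries of a group. Saa3, Fpr1 and Fpr2 lie in the order untreated, Cop1 KO, LPS, whereas Hp is highest in Cop1 KO (5.72 and 6.58 CPM) and Lcn2 only in LPS (76.7 and 75.3 CPM).

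The receptor genes share sequence, which bears on how reads were counted. Of all 50-base windows of the first GENCODE transcript of Fpr2, 37.2% occur unchanged in another gene, compared with 0.1% for Fpr1, 1.8% for Saa3 (all in Saa1) and 0 for Hp and Lcn2. Most of the shared Fpr2 windows, 33.9% of all, occur in the nearby pseudogene Gm5966, which was not analysed here, and 7.1% occur in Fpr3. In addition 48 exonic bases of Fpr2 (3.7%) overlap the Fpr3 entry in the annotation. A coding stretch of 110 bases around the run that Fpr1 and Fpr2 share is shown for the 3 genes, from GENCODE transcripts on GRCm38, with capitals where a base differs from Fpr2.
Fpr2, coding bases 343 to 452: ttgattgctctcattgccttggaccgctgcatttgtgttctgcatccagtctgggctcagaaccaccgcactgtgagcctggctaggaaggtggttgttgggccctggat
Fpr1, coding bases 367 to 476: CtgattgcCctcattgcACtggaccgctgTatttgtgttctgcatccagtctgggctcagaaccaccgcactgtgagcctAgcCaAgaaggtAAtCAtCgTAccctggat
Fpr3, coding bases 343 to 452: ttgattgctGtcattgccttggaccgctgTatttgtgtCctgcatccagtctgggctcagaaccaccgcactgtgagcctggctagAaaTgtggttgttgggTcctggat
Fpr1 differs from Fpr2 at 15 of these bases and shares an unbroken run of 50 with it, the length of 1 read. Fpr3 differs at 6 bases here, and its longest unbroken run shared with Fpr2, of 94 bases, is not contained in the stretch shown. The deposited counts take reads that align to 1 place only, so the Fpr2 level may be understated against Fpr1 in every library, while a comparison of Fpr2 between libraries meets the same windows on both sides.

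In the fit across all genes, a gene was called when its adjusted p was below 0.05 (edgeR quasi-likelihood test, Benjamini-Hochberg over 15585 genes). Of the 5 genes, 4 were called higher in the knockout (Saa3, Hp, Fpr1, Fpr2) and 4 with LPS (Saa3, Lcn2, Fpr1, Fpr2). Among all genes tested, 28.1% were called higher and 30.3% lower in the knockout, 58.4% in all, and 30.2% were called higher and 43.4% lower with LPS, 73.7% in all. Since the genes were chosen for these values, nothing is read from the difference. In fold change the 4 genes stood at ranks 5 (Saa3), 6 (Fpr1), 10 (Fpr2) and 16 (Hp) from the top of the knockout comparison. In the LPS comparison Fpr2 was at rank 81, Saa3 at 153, Fpr1 at 177 and Lcn2 at 271. Both comparisons use the same untreated libraries, so an error in those moves both values of a gene together.

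**Figure D3:**
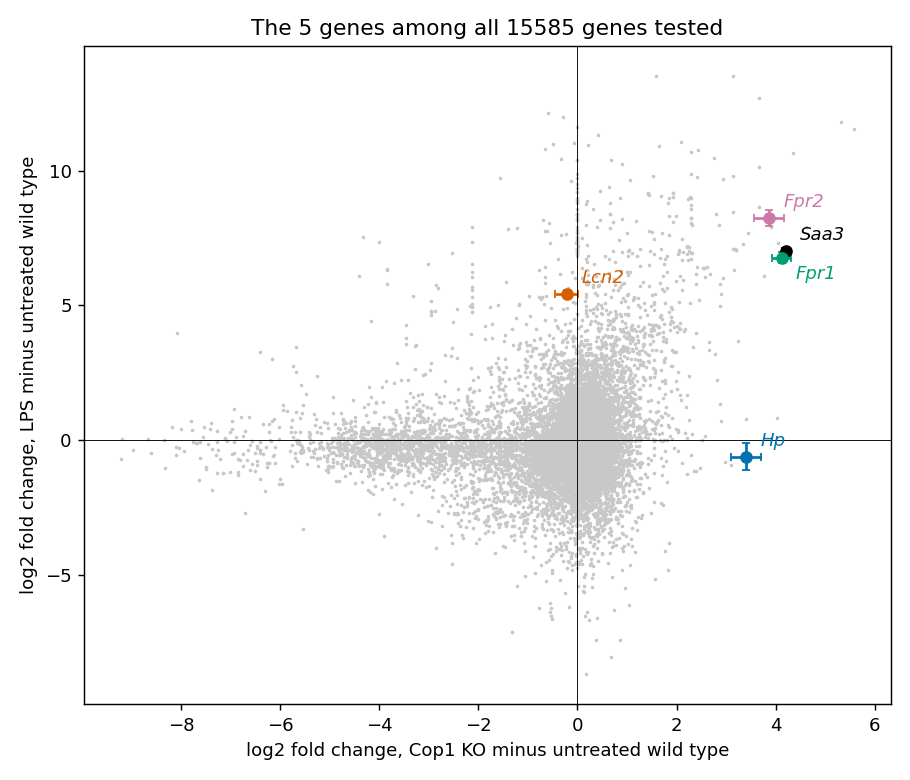
Log2 fold change in Cop1 KO (x axis) and with LPS (y axis), both against the same untreated wild-type libraries; grey dots are all 15585 genes tested and error bars are SE. Saa3, Fpr1 and Fpr2 lie high on both axes, Lcn2 lies near 0 on the x axis (−0.22) and Hp lies below 0 on the y axis (−0.60).

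Set against each other within the fit of all 6 libraries, Cop1 KO had less RNA than LPS for 4 genes and more for Hp. Saa3 was 7.12-fold lower in the knockout than with LPS (log2 −2.83, SE 0.03), and Fpr1 was 6.26-fold lower (log2 −2.65, SE 0.07). Fpr2 was 20.6-fold lower (log2 −4.36, SE 0.09), a larger gap than for the neighbouring Fpr1. Lcn2 was 50.0-fold lower (log2 −5.64, SE 0.18), while Hp was 16.1-fold higher (log2 4.01, SE 0.43). All 5 were called, 1 higher and 4 lower, as were 79.6% of genes tested, 39.9% higher and 39.6% lower, and nothing is read from that count either.

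Ratios within a library do not depend on how libraries are scaled to each other. Fpr2 made up 23.1% and 40.5% of the Fpr1 plus Fpr2 counts in untreated wild type, where 95% exact Clopper-Pearson intervals were 11.1 to 39.3% and 25.6 to 56.7%. Its share was 29.5% (25.8 to 33.3%) and 27.4% (23.8 to 31.2%) in the knockout and 56.1% (54.6 to 57.5%) and 57.2% (55.7 to 58.6%) with LPS. The knockout shares lay within the untreated intervals and below both LPS shares. Hp made up 24.2% and 25.0% of the Hp plus Lcn2 counts in untreated wild type (14.2 to 36.7% and 14.7 to 37.9%). The knockout libraries had Hp shares of 77.0% (69.8 to 83.2%) and 83.2% (76.9 to 88.4%), and the LPS libraries had 0.507% (0.204 to 1.04%) and 0.479% (0.176 to 1.04%). These 3 pairs of libraries did not overlap, and the knockout and LPS lay on opposite sides of untreated wild type. Against Saa3 they lay on the same side: Hp made up 6.55% and 6.70% of the Hp plus Saa3 counts in untreated wild type, 3.67% and 4.26% in Cop1 KO and 0.0366% and 0.0343% with LPS. Lcn2 made up 18.0% and 17.7% of the Lcn2 plus Saa3 counts, then 1.13% and 0.887%, then 6.70% and 6.65%, in the same order. Intervals cover counting error only, since reads without molecular identifiers are not independent molecules.

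**Figure D4:**
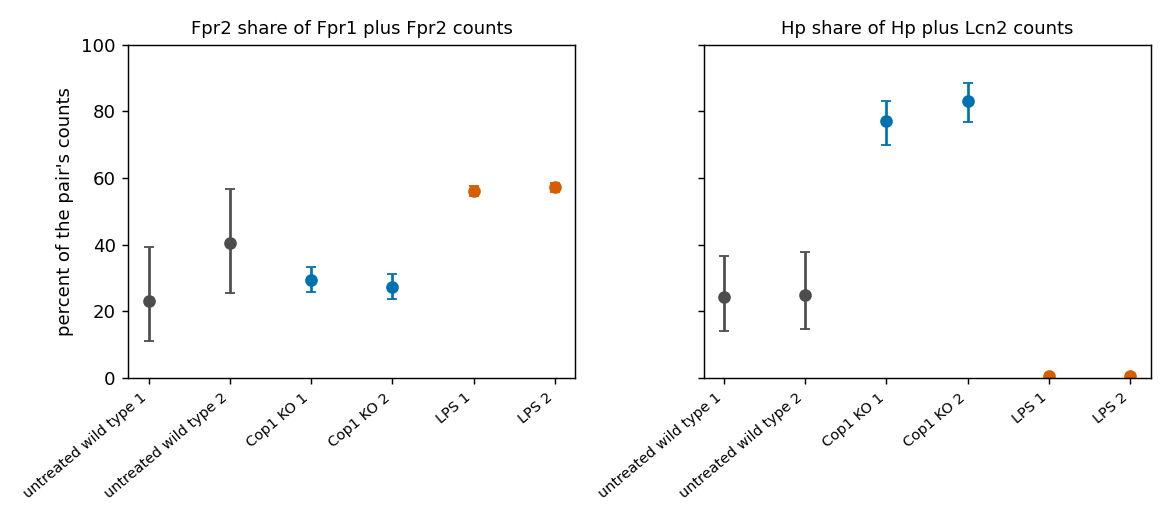
Share of counts within a pair of genes, in percent, 1 point per library with 95% exact Clopper-Pearson intervals. Left: Fpr2 is at 56.1 and 57.2% of the receptor counts with LPS and at 29.5 and 27.4% in Cop1 KO; right: Hp is at 77.0 and 83.2% of the Hp plus Lcn2 counts in Cop1 KO and at 0.507 and 0.479% with LPS.

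Per unit of length, on the nRPKM scale, the order of the 5 genes differed between groups. Untreated wild type had Saa3 highest (10.4 ± 0.631 nRPKM, SD, n = 2), then Lcn2 (1.41 ± 0.105), Fpr1 (0.543 ± 0.0935), Hp (0.290 ± 0.0128) and Fpr2 (0.259 ± 0.102). The last 2 overlapped between libraries. In Cop1 KO the order was Saa3 (208 ± 1.60), Fpr1 (10.4 ± 0.0108), Fpr2 (4.2 ± 0.298), Hp (3.39 ± 0.345) and Lcn2 (1.32 ± 0.233), with no overlap between neighbours. With LPS it was Saa3 (1516 ± 10.4), Fpr2 (88.6 ± 6.58), Lcn2 (67.5 ± 0.822), Fpr1 (66.4 ± 2.84) and Hp (0.212 ± 0.0113), and Lcn2 and Fpr1 overlapped. Together the 5 genes took 14.9 and 13.8 CPM of the unscaled library total when untreated and wild type, 192 and 189 CPM in the knockout and 1129 and 1136 CPM with LPS. Between 67.2% and 81.7% of these counts came from Saa3.

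The other genes of both families were nearly silent. None of the 8 (Saa1, Saa2, Saa4, Fpr3, Fpr-rs3, Fpr-rs4, Fpr-rs6 and Fpr-rs7) had enough counts to be tested. Saa1 and Saa2, the serum amyloid A genes of the liver response, had 5 and 2 counts over both LPS libraries and 0 in the knockout. Saa1 also had 1 count in untreated wild type. Saa4 had 1 count and Fpr3, which lies beside Fpr2, had 2 counts in all 6 libraries, all with LPS. The 4 Fpr-rs genes had 0 counts in every library, where a count of 0 allows up to 3 counts, or 0.112 to 0.181 CPM.

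Other acute-phase protein genes rose with LPS but were divided in Cop1 KO. The list of 29 also holds the niacin receptor gene Hcar2 and the metalloreductase gene Steap4, which are not acute-phase proteins. Of 16 genes tested, 15 were higher and 0 lower with LPS, where the median log2 fold change was 4.64 (4.49 with genes at 0 counts set to a floor of 3 counts over the group) beside −0.18 for all genes tested. In the knockout 6 were higher and 7 lower (median −0.44, beside −0.01 for all genes). Of all genes tested, 30.2% were higher and 43.4% lower with LPS, and 28.1% and 30.3% in the knockout. C3, the central complement component, rose from 28.6 to 167 CPM in the knockout (log2 2.54, SE 0.04) and to 2417 CPM with LPS (log2 6.40, SE 0.04). Cfb, which encodes complement factor B, rose by 0.99 (SE 0.12) and 6.25 (SE 0.10) on the same scale, and Hcar2 by 1.45 (SE 0.13) and 5.74 (SE 0.11).

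Il1rn, the gene of the interleukin 1 receptor antagonist, fell by 1.61 (SE 0.04) in the knockout and rose by 5.0 (SE 0.03) with LPS. Serpina3n, a secreted protease inhibitor gene, fell from 159 to 6.0 CPM in the knockout (log2 −4.73, SE 0.09) and rose to 273 CPM with LPS (log2 0.78, SE 0.04). A2m, which encodes alpha-2-macroglobulin, fell from 109 to 3.66 CPM (log2 −4.89, SE 0.12) and rose to 165 CPM with LPS (log2 0.60, SE 0.04). In the same libraries 9 of 10 tested astrocyte markers were lower in the knockout and 1 higher. This compares with 30.3% and 28.1% of all genes, and the markers had a median of −3.90. With LPS 5 of the markers were higher and 2 lower, against 30.2% and 43.4% of all genes. The marker median of 0.17 with LPS turned to −0.40 with library size only. Gjb6 had 0 counts throughout. The part of these markers in the fall of acute-phase genes was not tested. The liver-type genes Crp, Apcs, Serpina1a, Fga, Fgb and Fgg had 0 counts in all 6 libraries, and Orm1, Orm2, Itih3, Itih4, Serpina3m, Hamp and Lbp had too few to be tested. Hamp, the gene of the iron hormone hepcidin, had 10 and 13 counts with LPS and 1 count in the other 4 libraries together.

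**Figure D5:**
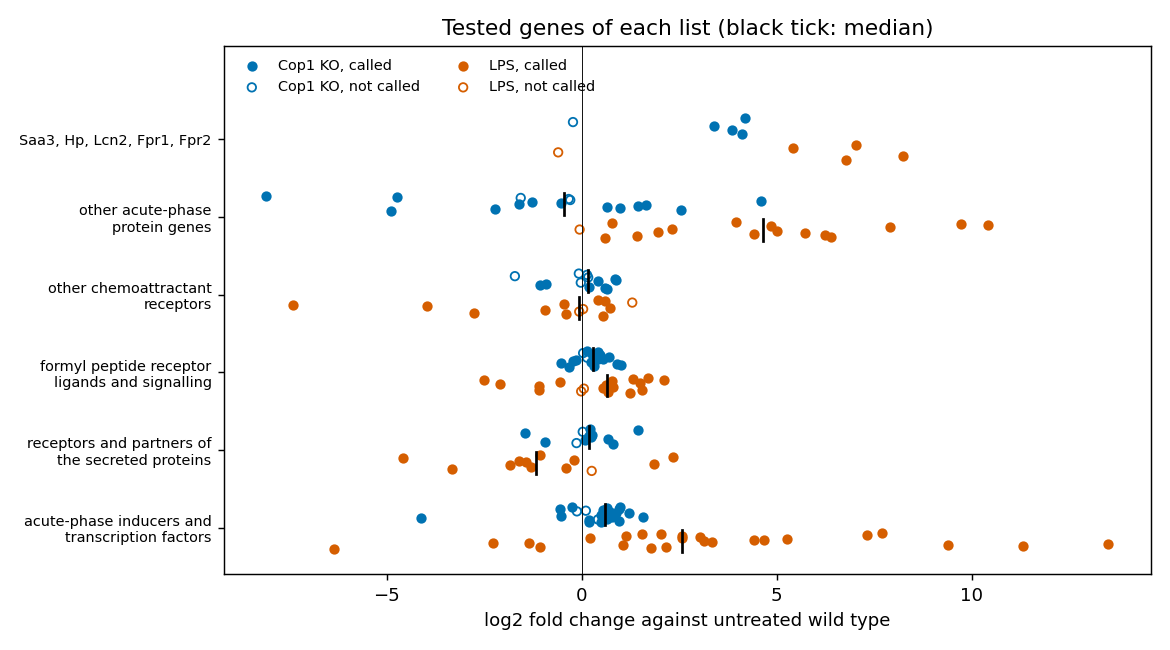
Log2 fold change against untreated wild type of each tested gene, by list, in Cop1 KO (blue) and with LPS (orange); filled points were called, open points were not, and black ticks are list medians. Acute-phase protein genes centre on 4.64 with LPS and on −0.44 in Cop1 KO; Orm3, with 0 counts in untreated wild type, and Steap4, with 0 in Cop1 KO, are at fitted values that depend on a small added count.

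Other chemoattractant receptor genes lay between −1.71 and 0.89 on the log2 scale in the knockout and between −7.40 and 1.30 with LPS. Of 13 tested, 6 were higher and 2 lower in Cop1 KO, against 28.1% and 30.3% of all genes (median 0.17, or −0.02 if scaled by library size alone). With LPS 4 were higher and 6 lower, against 30.2% and 43.4% of all genes (median −0.06, or 0.08 under median-of-ratios factors). C3ar1, the receptor gene for complement fragment C3a, rose by 0.66 (SE 0.03) in the knockout and by 0.56 (SE 0.03) with LPS. C5ar1, the C5a receptor gene, rose by 0.60 (SE 0.03) in the knockout and fell by 0.40 (SE 0.03) with LPS. The chemokine receptor genes Cx3cr1 and Cxcr4 rose in the knockout by 0.89 (SE 0.03) and 0.85 (SE 0.04). With LPS Cx3cr1 fell by 3.97 (SE 0.05), and Cxcr4 went from 178 to 1.04 CPM (log2 −7.40, SE 0.22). C5ar2, a second C5a receptor gene, was at 0.18 (SE 0.08) in the knockout and fell by 2.77 (SE 0.14) with LPS. Ltb4r1 and Cxcr2 had too few counts to be tested.

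As a list, genes of formyl peptide receptor ligands and downstream signalling were more often higher than lower in both comparisons. Of 18 tested, 12 were higher and 4 lower in the knockout (median 0.29), against 28.1% and 30.3% of all genes. With LPS 11 were higher and 5 lower (median 0.65), against 30.2% and 43.4% of all genes. Scaled by library size alone, 9 were higher and 4 lower in the knockout (median 0.10), and 9 were higher and 7 lower with LPS (median 0.09). The NADPH oxidase genes Cybb and Ncf1, whose products make the oxidant burst that the receptors trigger, rose in the knockout by 0.91 (SE 0.03) and 0.71 (SE 0.03). With LPS they rose by 1.56 (SE 0.03) and 1.51 (SE 0.03). Arrb2, which encodes the arrestin beta-2 that binds the active receptor, rose by 1.01 (SE 0.03) in the knockout and stood at −0.01 (SE 0.03) with LPS. Grk2, a receptor kinase gene, rose by 0.54 (SE 0.03) and 0.63 (SE 0.03). Pik3r5, a regulatory subunit gene of the phosphoinositide 3-kinase that G proteins activate, rose by 0.26 (SE 0.04) in the knockout and 2.12 (SE 0.04) with LPS. Rac2, the gene of a small GTPase of the oxidase, rose by 0.15 (SE 0.04) and 1.70 (SE 0.03). The ligand genes themselves were mixed. Anxa1, the annexin A1 gene, fell by 0.32 (SE 0.03) in the knockout and rose by 1.23 (SE 0.03) with LPS. App rose by 0.32 (SE 0.03) and 0.68 (SE 0.03). Hebp1 was not called in the knockout (0.14, SE 0.08) and fell by 2.09 (SE 0.12) with LPS. Camp, the gene of a cathelicidin peptide that is a ligand of FPR2, was at 0 counts in untreated wild type, against 2 and 1 in Cop1 KO and 16 and 6 with LPS, and Ctsg had 0 in every library.

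Genes of receptors and partners of the secreted proteins were lower with LPS in 9 cases. Of 12 tested, 2 were higher with LPS and 1 did not pass (median −1.18), while 30.2% of all genes were higher and 43.4% lower. In the knockout 8 of the 12 were higher and 2 lower (median 0.20), against 28.1% and 30.3% of all genes. With library size only, the knockout counts were 2 higher and 4 lower, and they were 5 higher without untreated replicate 1, untreated replicate 2 or Cop1 KO replicate 2. Tlr2, a receptor gene for bacterial lipoproteins and serum amyloid A, rose by 1.46 (SE 0.04) in the knockout and 2.35 (SE 0.04) with LPS. Slc40a1, the gene of the iron exporter ferroportin, was at 0.03 (SE 0.03) in the knockout and fell by 4.59 (SE 0.07) with LPS, from 344 to 14.3 CPM. Lrp1, an endocytic receptor gene, rose by 0.67 (SE 0.03) in the knockout and fell by 1.83 (SE 0.03) with LPS. Hmox1, which encodes the haem oxygenase that breaks down haem, was at 0.08 (SE 0.03) and fell by 1.29 (SE 0.03) in the same order. Slc22a17, the gene of a lipocalin 2 receptor, fell by 1.45 (SE 0.08) in the knockout, and Cd36, a scavenger receptor gene, fell by 0.95 (SE 0.03). Lrp2, which encodes the lipocalin 2 receptor megalin, had 0 to 5 counts per library and was not tested.

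Cytokine, cytokine receptor and transcription factor genes of the acute-phase response moved in both directions, with more of them higher than lower. Of 24 tested, 20 were higher and 4 lower with LPS (median 2.58), against 30.2% and 43.4% of all genes. In Cop1 KO 16 were higher and 4 lower (median 0.60), against 28.1% and 30.3% of all genes. Il6, the main inducer of acute-phase genes in liver, had 5 and 1 counts in untreated wild type, against 3 and 13 in Cop1 KO and 24922 and 23644 with LPS. The Il6 counts of the untreated and knockout groups overlapped. Il1a had 44 and 33, 42 and 47, and 65534 and 64102 counts in the same order, and Il1b rose from 8.66 to 5834 CPM with LPS (log2 9.39, SE 0.06) and to 13.5 CPM in the knockout (log2 0.64, SE 0.08). Tnf, another inducer, rose by 0.99 (SE 0.05) in the knockout and 7.70 (SE 0.05) with LPS. Nfkbiz, which encodes a nuclear cofactor of NF-kB that Lcn2 induction is known to need, rose by 1.22 (SE 0.07) and 5.28 (SE 0.06). Nfkbia, the gene of an NF-kB inhibitor, rose by 0.89 (SE 0.04) and 4.42 (SE 0.04), and Spi1, which encodes the ETS factor PU.1, by 0.64 (SE 0.03) and 1.56 (SE 0.03). The genes that fell with LPS were Cebpa, which encodes C/EBP alpha and went from 394 to 4.80 CPM (log2 −6.35, SE 0.11), Cebpg (−1.06, SE 0.05) and the interleukin 6 receptor genes Il6ra (−2.28, SE 0.09) and Il6st (−1.35, SE 0.05). Those that fell in the knockout were Il1r1, the interleukin 1 receptor gene (−4.11, SE 0.33), Il6st (−0.52, SE 0.05), Stat3 (−0.24, SE 0.04) and the inhibitor gene Socs3 (−0.55, SE 0.13). With LPS Il1r1, Stat3 and Socs3 rose, by 1.07 (SE 0.11), 2.03 (SE 0.03) and 7.31 (SE 0.08). Cebpb and Cebpd, other C/EBP genes, rose by 0.51 (SE 0.04) and 0.96 (SE 0.09) in the knockout. They rose by 1.78 (SE 0.04) and 2.16 (SE 0.08) with LPS. Cebpa and Cebpg were at 0.19 (SE 0.03) and 0.18 (SE 0.05) in the knockout. All of these genes were named after their values were seen. Il1r1 went from 8.15 to 0.468 CPM in the knockout, where the tested astrocyte markers had a median of −3.9. The part of astrocytes in the Il1r1 level was not tested. Cebpe had 9 counts in all and was not tested.

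Neutrophils are known for high levels of Lcn2, Fpr1 and Fpr2, and their markers were looked for in the same libraries. Of 16 neutrophil markers 7 had 0 counts in all 6 libraries (Ly6g, Mpo, Elane, Ngp, S100a9, Retnlg and Stfa2), and 3 were tested. All 3 were higher in the knockout: Csf3r, the receptor gene for granulocyte colony-stimulating factor, rose from 80.3 to 211 CPM (log2 1.39, SE 0.04), Mmp8 from 9.62 to 13.3 CPM and S100a8 from 0.231 to 0.693 CPM. With LPS Csf3r rose by 0.25 (SE 0.04), Mmp8 fell by 1.14 (SE 0.15) and S100a8 was not called (0.46, SE 0.68). Among all genes tested, 28.1% were higher and 30.3% lower in the knockout, and 30.2% and 43.4% with LPS. The list summed to 89.8 to 90.9 CPM in untreated wild type, to 223 to 227 in Cop1 KO and 100.3 to 101 with LPS, and without Csf3r to 9.81 to 10.3, 13.7 to 14.9 and 5.25 to 5.53 CPM. Of 9 monocyte markers 6 were tested. In the knockout 2 were higher and 2 lower (median 0.07), against 28.1% and 30.3% of all genes. With LPS 5 were higher and 1 lower (median 3.17), against 30.2% and 43.4% of all genes. The 9 summed to 394 to 403 CPM in untreated wild type, 406 to 426 in Cop1 KO and 1693 to 1766 with LPS, while Ly6c2, the defining surface marker gene, had 0 counts in every library. Most of the LPS sum came from Cd44 (818 CPM), Itga4 (506 CPM) and Ms4a4c (369 CPM). The gene called lower with LPS was Ccr2, at 2.19 CPM in untreated wild type and 1.15 CPM with LPS. The part of these cells in the levels of Lcn2, Fpr1 and Fpr2 was not tested beyond these values.

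The genes whose pattern over the 6 libraries was most like each member were ranked by the root mean square difference of log2 CPM. Each gene was centred on its own mean, with a prior count of 2 added. Only genes with a name and an average of 1 CPM or more were ranked, so a closer gene without a name would not appear. Saa3 and Fpr1 were each other's nearest gene, with a difference of 0.16. Ifi206 and Ifit3b, both interferon-induced genes, came next for Saa3 (0.51 and 0.65) and for Fpr1 (0.58 and 0.62). Fpr2 was nearest to Ifi206 (0.34), Mx1 (0.42) and Slfn1 (0.54). For Hp the nearest genes were Itga8 (0.38), Ltbp2 (0.53) and Mgp (0.56). Mgp, the matrix Gla protein gene, had 10 and 11 counts in untreated wild type, against 174 and 124 in Cop1 KO and 17 and 8 with LPS. For Lcn2 the 3 smallest differences were those of Timd2 (0.15), H2-M2 (0.16) and Havcr1 (0.17). Timd2 had 1 count in all 4 untreated libraries and 76 and 66 with LPS, so its difference and that of Havcr1 depend on the prior count. H2-M2 went from 6.66 CPM in untreated wild type to 5.80 in the knockout and 334 with LPS, and Havcr1 had 0 counts in all 4 untreated libraries and 66 and 75 with LPS. These are descriptions over 6 libraries in 3 groups.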

How the data were processed

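Each deposited count is, per the file headers, the number of uniquely aligned reads of a gene model. The deposited RPKM value (nRPKM) was adjusted by a size factor, per the file headers. GSNAP and the build GRCm38 are named in the submitters' processing notes, and the aligner's version is not given in the sources used here, nor is the annotation release. Libraries were single-end and unstranded, per the labels' protocols. Of 36528 Entrez numbers, 31049 took names from RefSeq, 78 from GENCODE and 5401 none; counts without a name were 1.072% to 1.304% of a library, and these rows, which carry an Entrez number, stayed in library sizes and tests.

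Counts were fitted with edgeR 4.0.16 in R 4.3.3 (filterByExpr, 15585 genes; TMM; glmQLFit on 6 libraries with group means, 3 residual degrees of freedom), and called below an adjusted p of 0.05. SE came from the fit's weights and dispersion. The fit was also run on simulated counts in which few genes changed, in the knockout group only. That run does not check the scaling where most genes were called, as here. Alternatives used other scalings, no filter, only the groups compared, DESeq2 1.42.0, limma 3.58.1 on log2(nRPKM + 1) or + 0.1, and leaving out each library. The 5 genes, the gene lists and the rule for named genes (the 4 smallest p per list and comparison, genes without enough counts, and the 3 nearest patterns per gene) were chosen with earlier results of these data known.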

Additional observations from a re-analysis of the deposited data

How the results depend on the processing

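Of 399 values recomputed under other scalings, filters, tools or the 2 compared groups alone, 365 kept their direction and side of the threshold, or their count within 1.5 times. Saa3, Fpr1, Fpr2, Lcn2 and Hp were chosen by their values in these same libraries, so nothing is read from whether their calls held. For Saa3, Fpr1, Fpr2 and Lcn2 every direction and call held under all alternatives, while Hp with LPS passed with library size only (−1.16). That scaling also gave, in the knockout, 4 lower chemoattractant receptors, 2 higher and 4 lower partner genes, 1 higher monocyte marker, 0 higher astrocyte markers and 1 lower microglia marker. With LPS it gave 1 lower acute-phase gene, 1 higher chemoattractant receptor, 0 higher and 2 lower neutrophil markers, 2 higher and 7 lower astrocyte markers and 1 higher microglia marker. DESeq2 and limma with either added value each gave, in the knockout, 1 lower chemoattractant receptor, 2 lower signalling genes and 1 lower monocyte marker, and with LPS 0 lower monocyte markers and 1 lower astrocyte marker. Median-of-ratios factors and the fit of only the 2 groups each gave 1 lower astrocyte marker with LPS, and no low-count filter gave 2 higher neutrophil markers. The share of called genes that were higher in the knockout was 48.1%, against 58.4% under median-of-ratios factors, 24.4% with library size alone and 63.6% and 62.5% with limma; with LPS it was 41.1% against 19.9% with library size only, and for Cop1 KO against LPS 50.2% against 64.5%. With TMM factors, then median-of-ratios factors, then library size alone, the medians of all genes were −0.01, 0.08 and −0.20 in the knockout, −0.18, −0.04 and −0.74 with LPS, and 0.03, −0.03 and 0.40 for Cop1 KO against LPS.

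Leaving out 1 library at a time gave 5 to 8 higher partner genes, 1 to 2 higher monocyte markers and 0 to 1 higher astrocyte markers in the knockout, and 1 to 2 higher neutrophil markers, 0 to 1 lower monocyte markers and 1 to 2 lower astrocyte markers with LPS; the group left with 1 library is then assumed to vary like the others. Cop1 was −0.21 and −0.34 with limma and did not pass. The cause of these shifts was not tested. No paired analysis was possible because the labels give no replicate numbers. Untreated levels of Fpr2 (26 counts over both libraries) and Hp (30) and the LPS level of Hp (13) limit the precision of their fold changes.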
